A study of Hordeum vulgare with 10 samples.

Results

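The miRNAs hvu-new34, hvu-new47, hvu-new48, hvu-new60 and hvu-new73 are 5 of the 81 predicted miRNAs, and of the 142 miRNAs in all, that were counted in barley seeds of cv. Damazy. RNA came from the part of the dry seed with embryo and scutellum, a label that a table of miRNAs cannot check. The members were selected on their raw counts, which were higher in regenerated seeds (Rc) than in both stored seed stocks. The contrast between Rc and stored seeds is therefore given below as a description without a test. The Lv and Hv stocks were harvested in 1972, sealed in separate flasks and stored until 2018, when Lv seeds (low viability) germinated at 2% and most Hv seeds (high viability) still germinated. Rc seeds were not stored and came from a field regeneration of the highly viable stock. Each group had 3 libraries of pooled seeds, taken from a single flask or harvest per group. Between Rc and the stored stocks, storage, viability, flask, harvest and seed moisture thus cannot be told apart. Lv and Hv share harvest and storage time, but their viability, flask and seed moisture, which the paper gives as higher in Lv, cannot be told apart. The spread between libraries is the spread within one flask or harvest. Small RNA sequencing gave between 3966 and 19542 counts per library over the 142 miRNAs. All Lv libraries and Hv replicate 3 were sequenced in run 2, Rc replicates 2 and 3 and Hv replicates 1 and 2 in run 1, and the run behind the column of Rc replicate 1 is not known here. Run is thus unbalanced between Lv and Hv. Between Lv and the Rc libraries of known run, it cannot be told apart from group.

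Plant miRNAs are cut by Dicer-like enzymes from the stem of a hairpin transcript and guide an Argonaute protein to complementary mRNAs, which are cleaved or not translated. Dry seeds keep RNAs made during seed development, small RNAs among them, which can still be sequenced after storage. The prediction used by the authors, miRCat, looks for small RNA reads whose genomic surroundings can fold into such a hairpin. A count of 0 for a predicted miRNA therefore says that the library did not list this sequence, and the smallest count above 0 listed for any predicted miRNA was 2.

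The mature sequences of the 5 miRNAs are shown 5′ to 3′ in DNA letters, with the seed (bases 2 to 8) in capitals, because no member shared its seed with another predicted miRNA and the members are thus unrelated to each other by seed.
hvu-new34: tAATGATCttatctcggtgttg
hvu-new47: tCTGGATGttgattagatgtt
hvu-new48: tCTTATGTtgtgggacggagg
hvu-new60: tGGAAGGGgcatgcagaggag
hvu-new73: tTGAGTGCagcgttgatgaac
All 5 begin with T. The hvu-new34 sequence has 22 nt and the others have 21 nt, and GC content ran from 33.3% in hvu-new47 to 61.9% in hvu-new60.

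Of the 5 miRNAs, hvu-new60 had the most counts and was the one listed in every Rc library and in no stored library. The family assignments that the study lists by name do not include hvu-new60. Its predicted targets in barley encode a photosystem II chlorophyll a/b binding protein, a hordoindoline, a rust resistance protein, a cystatin and a thioredoxin reductase. Hordoindolines are grain proteins that affect endosperm texture, and cystatins inhibit cysteine proteases. The paper scored the cystatin and thioredoxin reductase matches at the loosest value it accepted, and no target was tested here. The locus listed for hvu-new60 lies on the plus strand of chromosome 4H, chr4H:622673300-622673320 in the build Hv_IBSC_PGSB_v2. No other listed miRNA lay within 200 bases of it. The hairpin is shown because it is the only one listed for this miRNA, with the mature sequence in capitals.
hvu-new60 hairpin: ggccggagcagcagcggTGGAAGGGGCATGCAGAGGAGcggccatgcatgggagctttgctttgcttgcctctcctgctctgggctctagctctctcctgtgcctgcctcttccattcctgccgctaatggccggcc
Folded with RNAfold, the 137 bases gave a minimum free energy of -72.2 kcal/mol, with the mature sequence on the 5′ arm and 20 of its 21 bases paired. No star sequence, the strand opposite the mature miRNA in the duplex, was listed for it.

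Rc replicates 1 to 3 held 11, 24 and 18 counts of hvu-new60, and all 6 stored libraries were at 0. Replicate 2 was the highest and replicate 3 the lowest of the Rc libraries in reads per 1000000 mapped reads (RPM), and even the lowest lay above every stored library. The level in Rc was 62.2 ± 32.6 RPM (SD, n = 3). At the pooled Rc rate the stored libraries together should have held 104 counts, from 10.0 in Lv replicate 1 to 24.8 in Hv replicate 3. A library at 0 was taken to allow up to 3 counts. This limit covers counting error only, while a 0 here means that the sequence was not listed, so no fold is given. Within run 1, Rc replicates 2 and 3 averaged 70.4 RPM, while Hv replicates 1 and 2, where 12.2 and 17.7 counts were expected at the rate of those Rc libraries, were both at 0.

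**Figure D1:**
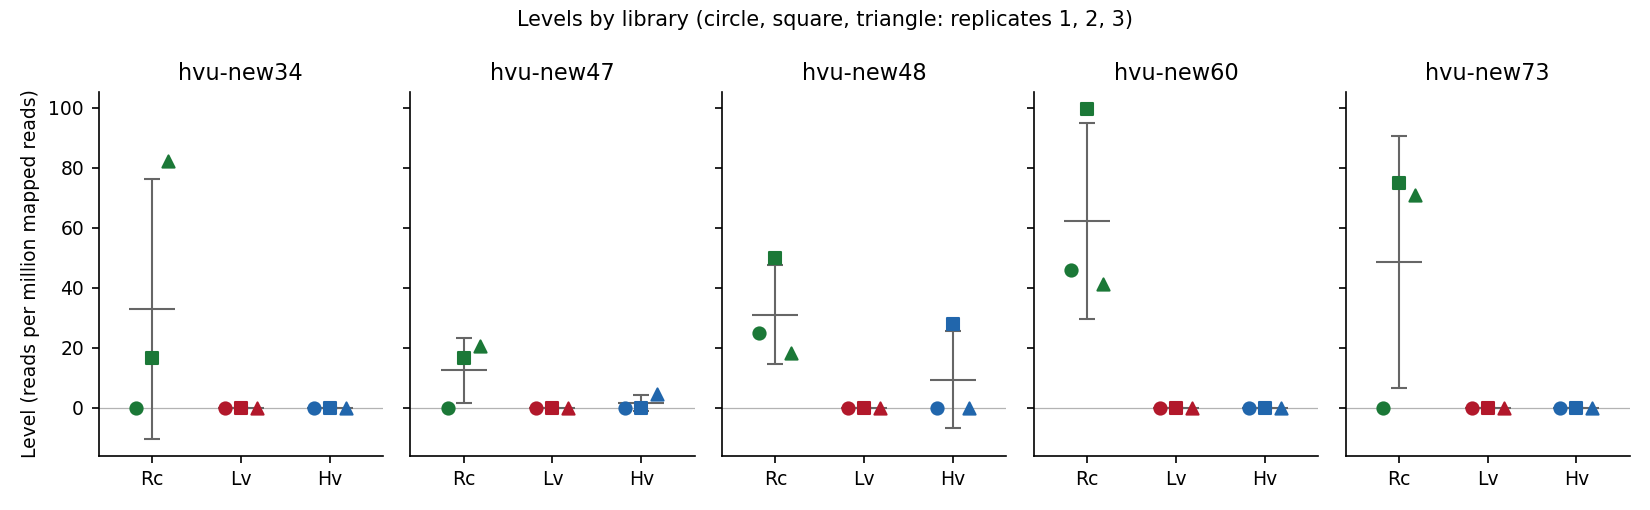
Levels of the 5 miRNAs in RPM (y axis) in the 3 libraries of Rc, Lv and Hv (x axis). Circles, squares and triangles are replicates 1, 2 and 3, and bars give the mean and SD (n = 3). In Lv all 15 points lie at 0, and in Hv 2 points lie above it, Hv replicate 2 for hvu-new48 and Hv replicate 3 for hvu-new47.

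The hvu-new73 miRNA is the member named in the study's list of family assignments. It was placed there in the conserved family miR397, which targets laccases, the copper enzymes of lignin formation, in Arabidopsis and rice. The paper gives this assignment a probability well below certainty, and targets of hvu-new73 itself were not examined here. Rc replicate 1 listed 0 counts of it, replicate 2 listed 18 and replicate 3 listed 31, and each stored library was at 0. Rc replicate 1 thus could not be told from the stored libraries, while the other Rc libraries were close to each other at 74.8 and 70.8 RPM. Over the 3 Rc libraries the level was 48.5 ± 42.1 RPM (SD, n = 3). At the rate of Rc replicates 2 and 3, 17.3 counts were expected in Rc replicate 1. At the pooled Rc rate 96.2 were expected in the stored libraries, where none were listed. Since Rc replicate 1 was at 0 as well, no fold is given.

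The hairpin of hvu-new73 was the only one of the 5 to hold other miRNAs of the count table, and these were listed on the opposite strand. It spans chr6H:95336398-95336504, with hvu-new73 listed on the plus strand at chr6H:95336411-95336431 and hvu-new57 on the minus strand at chr6H:95336467-95336488, 35 bases apart. The hairpin listed for hvu-new57 is the exact reverse complement of that of hvu-new73. The sequence of miR397.1, the only known miRNA of its family in the table and listed among the study's targets as a 3p form of miR397b, was found in the minus-strand hairpin, and a run of 17 of its bases is complementary to hvu-new73. The sequences are shown to let both strands be compared, with the mature sequence in capitals in the hairpins and the seed in capitals in hvu-new57.
hvu-new73 hairpin: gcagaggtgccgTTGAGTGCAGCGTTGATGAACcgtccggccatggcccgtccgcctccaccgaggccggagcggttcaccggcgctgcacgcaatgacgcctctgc
hvu-new57 hairpin: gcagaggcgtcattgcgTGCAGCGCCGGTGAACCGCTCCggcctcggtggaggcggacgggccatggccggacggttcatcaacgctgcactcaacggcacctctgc
hvu-new57: tGCAGCGCcggtgaaccgctcc
miR397.1: atcaacgctgcactcaacggc
RNAfold gave -73.7 kcal/mol for the plus strand and -70.8 for the minus strand, with 19 of 21 bases of hvu-new73 and 19 of 22 bases of hvu-new57 paired. For hvu-new73 2 star sequences were listed, and for hvu-new57 none.

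Where this hairpin was listed, Rc libraries held the plus strand only and stored libraries the minus strand only. The plus-strand part follows from the choice of hvu-new73, so only the minus-strand counts were free to vary. On the minus strand, hvu-new57 had 0 counts in every Rc library, 0, 4 and 2 in Lv replicates 1 to 3, and 0, 7 and 2 in Hv. The miR397.1 sequence added 1 count in Hv replicate 2. No library listed both strands, and Rc replicate 1, Lv replicate 1 and Hv replicate 1 listed neither. Summed over both strands, the 49 counts of Rc compare with 6 of Lv and 10 of Hv, or 53.4, 6.75 and 10.9 RPM. All of the Rc counts are of hvu-new73, which was chosen for being high there and low in stored seeds. By library the groups overlapped, with 0 counts in Rc replicate 1 and 8 in Hv replicate 2. The minus strand rests on few reads, from 2 to 8 counts in 4 stored libraries. The study's miRCat settings also asked that most reads of a locus lie on one strand, and the part of this setting in the pattern was not tested.

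**Figure D2:**
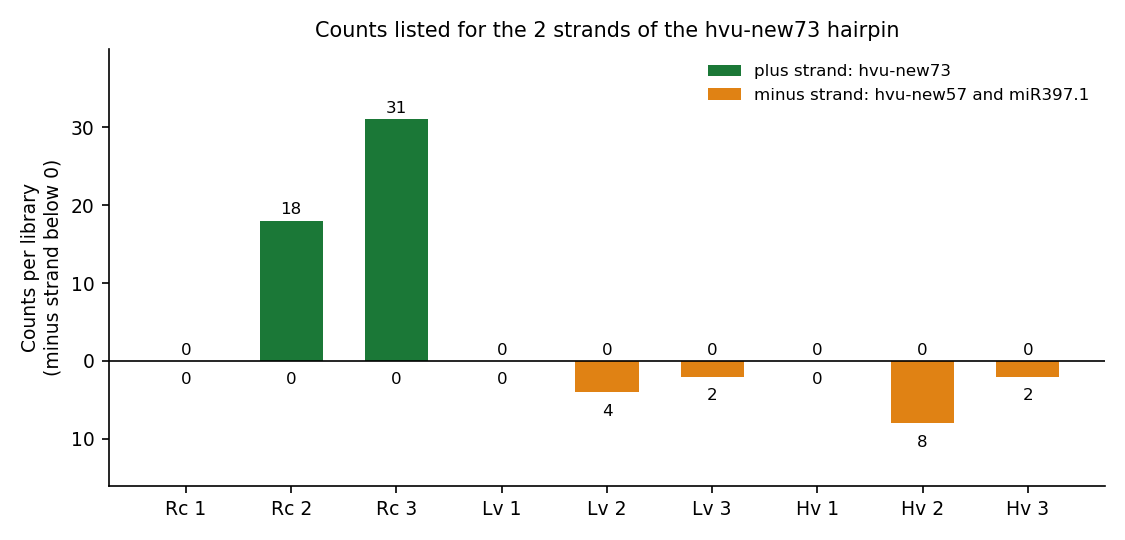
Counts per library listed for the hairpin on chromosome 6H, with hvu-new73 on the plus strand drawn upwards and the sum of hvu-new57 and miR397.1 on the minus strand drawn downwards (y axis, counts; x axis, the 9 libraries). The plus strand was listed in Rc replicates 2 and 3 with 18 and 31 counts, and the minus strand in 4 stored libraries with 4, 2, 8 and 2.

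The hvu-new34 miRNA showed the largest spread among the Rc libraries. Rc replicates 1 to 3 had 0, 4 and 36 counts, or 0, 16.6 and 82.2 RPM, and all stored libraries were at 0. Its level of 32.9 ± 43.4 RPM in Rc (SD, n = 3) rested on replicate 3, and without that library the mean was 8.31 RPM. The 78.5 counts expected in the stored libraries at the pooled Rc rate fell to 15.0 without Rc replicate 3.

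Each read of hvu-new34 could come from 3 listed loci, at chr1H:271666481-271666502 and chr4H:571295261-571295282 on the plus strand and at chr7H:593987693-593987714 on the minus strand. The 36 counts of Rc replicate 3 are 12 for each locus, whereas the 4 counts of Rc replicate 2 are not a multiple of 3. Divided by loci, the Rc level was 10.98 RPM and 26.2 counts were expected in the stored libraries. The expectation then fell below the limit of 3 counts in Lv replicate 1 and Hv replicate 1, where a difference was thus not detectable. The hairpins on 4H and 7H differ at 1 of 66 bases, and the 4H form is shown because the stem is joined by a loop of only a few bases.
hvu-new34 hairpin on 4H: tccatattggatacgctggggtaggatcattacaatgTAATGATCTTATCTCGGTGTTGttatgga
In the folds of all 3 hairpins the mature sequence lay on the 3′ arm with 5 bases between it and its paired strand. In the 4H hairpin 20 of 22 mature bases were paired. No star sequence was listed for hvu-new34, and the family assignments that the study lists by name do not include it.

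The hvu-new48 miRNA was listed in all 3 Rc libraries, where replicates 1 to 3 held 6, 12 and 8 counts, and in 1 stored library, Hv replicate 2, where 8 were listed. In RPM these are 25.0, 49.9 and 18.3 in Rc and 27.9 in Hv replicate 2, so the Hv library lay inside the range of Rc and the groups overlapped. At the pooled Rc rate 8.11 counts were expected in Hv replicate 2, which is what was listed there. The 5 other stored libraries were at 0, where from 4.91 to 12.2 counts were expected. With counts divided by its 2 loci, 25.5 counts in place of 51.04 were expected over the stored libraries, and the expectation fell below the limit of 3 counts in Lv replicate 1 and Hv replicate 1, where a difference was thus not detectable. The level was 31.1 ± 16.7 RPM in Rc and 9.31 ± 16.1 in Hv (SD, n = 3).

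By sequence, hvu-new48 was the member closest to a known miRNA of the table, miR1120.2. Over 20 aligned bases it differed from it at 2, by the substitutions G7A and G10A, with positions counted from the 5′ end of hvu-new48, its base first and that of miR1120.2 last. The differing bases are in capitals.
hvu-new48: tcttatGttGtgggacggagg
miR1120.2: ttcttatAttAtgggacggag
Each library held at most 2 counts of miR1120.2, which was listed in 7 of the 9, and miR1120.1 had 1 count, in Lv replicate 1. At these counts no difference between groups was detectable for the known family. A pair of loci, chr1H:517538497-517538517 and chr2H:588248085-588248105, both on the minus strand, was listed for hvu-new48, and each of its counts is a multiple of 2, leaving 3, 6 and 4 per locus in Rc and 4 in Hv replicate 2. The hairpin on 1H is shown because it is an almost perfect inverted repeat.
hvu-new48 hairpin on 1H: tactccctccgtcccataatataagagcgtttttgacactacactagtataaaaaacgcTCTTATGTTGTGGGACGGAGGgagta
In its fold 76 of 85 bases were paired, all 21 of the mature sequence among them, at -62.1 kcal/mol. The star sequence listed from the other arm (tccgtcccataatataagagc) is complementary to miR1120.2 over a run of 19 bases. The 2H hairpin paired less, with 66 of 99 bases and -30.2 kcal/mol, and the first base of the mature sequence lay outside it.

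The hvu-new47 miRNA had the fewest counts of the 5, at 0 in Rc replicate 1, 4 in replicate 2 and 9 in replicate 3. All Lv libraries were at 0, and Hv replicate 3 listed 2. The level in Rc was 12.4 ± 10.9 RPM (SD, n = 3), and Hv replicate 3 stood at 4.65 RPM, above Rc replicate 1. Between 2.45 and 6.09 counts were expected in each stored library at the pooled Rc rate, which is below the limit of 3 counts in Lv replicate 1 and Hv replicate 1. A difference in hvu-new47 in those libraries was thus not detectable at this depth. It was listed once in the genome, on the minus strand at chr7H:441968884-441968904, with 2 star sequences listed. Its hairpin of 62 bases had the weakest fold of the members, -19.1 kcal/mol, with 17 of 21 mature bases paired.

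Across the members, counts stood above 0 in 12 of 15 values of Rc and at 0 in 28 of 30 values of the stored libraries. Rc replicate 1 was at 0 for hvu-new34, hvu-new47 and hvu-new73, and Rc replicates 2 and 3 listed all 5. In each library of Rc the 5 miRNAs made up between 0.212% and 0.866% of the counts. By mean level in Rc the order was hvu-new60, hvu-new73, hvu-new34, hvu-new48 and hvu-new47, and the ranges of all neighbours in that order overlapped. The order holds for counts as deposited, and with counts divided by loci hvu-new34, at 10.98 RPM, came last, after hvu-new48 at 15.5 and hvu-new47 at 12.4. Of the 99 miRNAs with at least 10 counts in all, 6.06% had every Rc library above every stored library in RPM, and 1 of the 5 members, hvu-new60, was among them. Of the same 99, 4 miRNAs or 4.04% were at 0 in all 6 stored libraries. They were hvu-new34, hvu-new60, hvu-new73 and hvu-new61, which is not a member. Both counts use the contrast that chose the members.

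**Figure D3:**
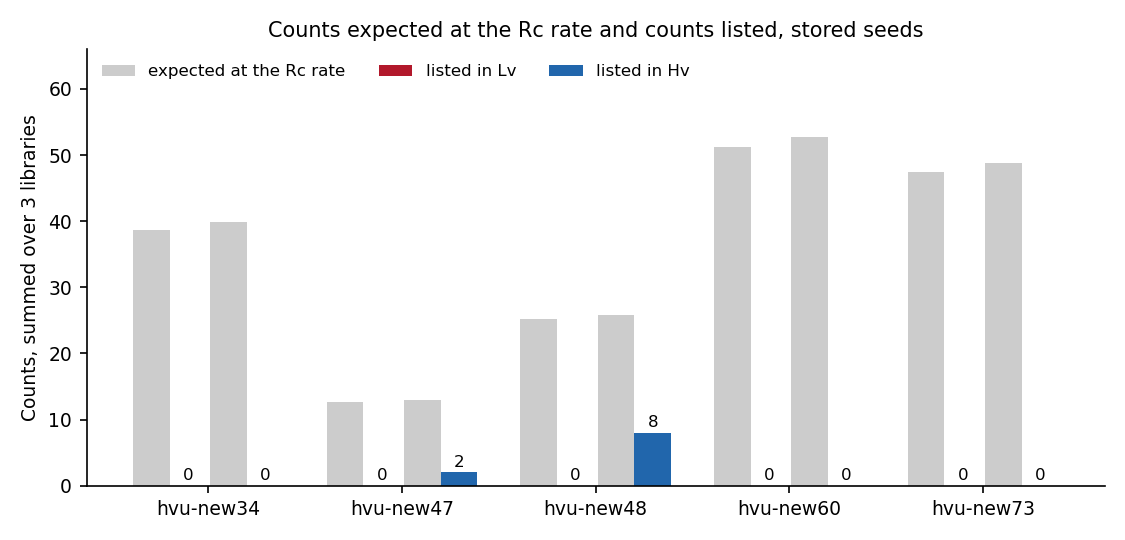
Counts expected in the 3 Lv and the 3 Hv libraries at the pooled Rc rate per mapped read (grey bars) beside the counts listed there (coloured bars, with the number above; y axis, counts summed over 3 libraries). Expected counts ran from 12.6 for hvu-new47 in Lv to 52.8 for hvu-new60 in Hv, against listed counts of 0 except 2 of hvu-new47 and 8 of hvu-new48 in Hv.

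The choice of members asked for low counts in both stored stocks and so bears on their comparison as well. In edgeR's quasi-likelihood test over the 99 miRNAs, 0 passed an adjusted p of 0.05 between Hv and Lv (0% of those tested), although 5 had an unadjusted p below 0.05. By DESeq2 the number called was 0 as well, and 3 had an unadjusted p below 0.05. All 5 members entered this fit through their Rc counts, and 3 of them were at 0 in both stocks. For hvu-new47 and hvu-new48 the stocks differed by 2 and 8 counts, each from a single Hv library, so no fold or test of the members is given here.

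Being listed in few libraries was common among predicted miRNAs of similar counts. The 35 other predicted miRNAs with 10 to 60 counts in all were listed in a median of 4 of 9 libraries, from 2 to 8, and 25 of them in at most 4. The members were listed in 2 to 4. Of the 35, 1 was at 0 in all 6 stored libraries and 4 were at 0 in all 3 Rc libraries, the latter hvu-new17, hvu-new24, hvu-new53 and hvu-new57. The share of a miRNA's counts found in Rc was 36.8% at the median of the 35, and 100% for hvu-new34, hvu-new60 and hvu-new73 and 76.5% for hvu-new48. For hvu-new47 it was 13 of 15 counts. Among the 35, hvu-new61 had 100% of its 16 counts in Rc, above hvu-new47 and hvu-new48, although it is not a member, and the next highest was hvu-new7 with 75.0%. Of all 81 predicted miRNAs, 80 had counts in at least 2 libraries of the same group. The part of this in the pattern of hvu-new34, hvu-new47 and hvu-new73, each listed in 2 Rc libraries, was not tested.

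**Figure D4:**
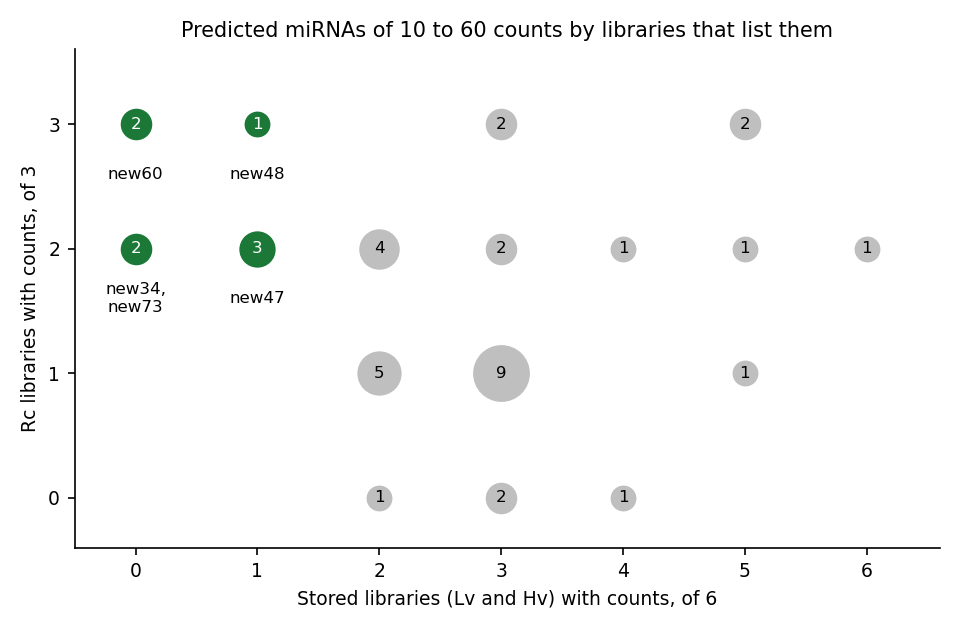
Predicted miRNAs with 10 to 60 counts, placed by the number of stored libraries (x axis, of 6) and of Rc libraries (y axis, of 3) that list them, with the number of miRNAs in each circle. Circles that hold members are green and carry their names, and in all of them at least 2 Rc libraries and at most 1 stored library had counts.

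Likeness to a member was taken as the number of libraries in which both were listed or both at 0, over miRNAs with at least 10 counts. The pattern of hvu-new60 was shared in all 9 libraries by hvu-new61, with 3, 6 and 7 counts in Rc. That of hvu-new34 and hvu-new73 was the same in all 9. The pattern of hvu-new48 was shared in all 9 libraries by hvu-new49, with 24, 24 and 70 counts in Rc and 33 in Hv replicate 2. For hvu-new47, the likest miRNAs outside the members agreed in 8 libraries, among them hvu-new16. Of the predicted miRNAs that the study assigned to conserved families, the 10 others that its list names were checked. Each of these had counts in at least 1 stored library, and 4 of them in all 6. Their share of counts in Rc had a median of 41.6%, from 0% to 78.1%. The highest was hvu-new49, with counts in 1 stored library. Their totals ran from 13 to 25504 counts, against 49 for hvu-new73, so depth differs in this comparison.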

How the data were processed

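The authors trimmed the reads, removed those outside the length range of miRNAs, mapped them to Hv_IBSC_PGSB_v2, counted known miRNAs with miRProf and predicted others with miRCat. The deposited table gives, per library, unnormalized counts of 142 miRNAs. A read with several loci appears to be counted at each, since 104 of 115 counts above 0 of the 19 predicted miRNAs with 2 or more loci are whole multiples of their number. The deposited normalized values, fold changes and p-values of the authors' DESeq2 comparison were not used. Sequences and loci come from the study's supplement. The listed position of each member and that of its hairpin disagree by 1 base, which was not settled.

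Levels are counts per 1000000 mapped reads, with mapped reads taken from the study. The column of Rc replicate 1 fits both of its sequencing runs. Expected counts are summed Rc counts over summed Rc mapped reads, times the mapped reads of a library. Differences were tested with edgeR 4.0.16 in R 4.3.3 (TMM, at least 10 counts over 9 libraries, Benjamini-Hochberg at 0.05), after a test on simulated data, with DESeq2 1.42.0 as alternative. Hairpins were folded with RNAfold 2.7.2. The text names the members, miRNAs within 200 bases of their loci, sequences with at most 3 mismatches over at least 17 bases, the miR397 and miR1120 families, and up to 3 miRNAs per member with the likest listing. Outside this rule, hvu-new2, hvu-new7, hvu-new8, hvu-new17, hvu-new24, hvu-new28, hvu-new53, hvu-new65, hvu-new69 and miR159.5 were singled out once their values were known. The members and lists were chosen with earlier results of these data known.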

Additional observations from a re-analysis of the deposited data

How the results depend on the processing

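Division by the number of loci took the counts of hvu-new34 expected in stored seeds from 78.5 to 26.2 and those of hvu-new48 from 51.04 to 25.5, and leaving out Rc replicates gave from 15.0 to 106 for hvu-new34, from 15.0 to 34.5 for hvu-new47, from 37.2 to 67.6 for hvu-new48, from 77.1 to 131 for hvu-new60 and from 67.6 to 130 for hvu-new73. For hvu-new60, 82.1 counts were expected in stored seeds when the totals of the table set the library size. Between Hv and Lv, hvu-new47 and hvu-new48 were at 0 in all stored libraries without Hv replicate 3 and Hv replicate 2, respectively, which leaves no difference. Leaving out each library gave from 0 to 1 miRNAs called between Hv and Lv (hvu-new28 without Lv replicate 3, hvu-new69 without Hv replicate 3). Between stored and Rc seeds, edgeR called 0 of 99 miRNAs (10 at an unadjusted p below 0.05), against 3 with DESeq2 (hvu-new2, hvu-new60 and miR159.5), 2 without a filter on low counts (hvu-new2 and hvu-new60), and from 0 to 1 with a library left out (hvu-new2 without Hv replicate 1, hvu-new49 without Hv replicate 2). Of the members, only hvu-new60 appears among these calls. The choice of members used this contrast, so a call here is not a test of a member. Same-numbered libraries did not deviate together (correlations from -0.133 to 0.148), and the replicate block left 0 miRNAs called in both comparisons. With sequencing run as covariate and Rc replicate 1 left out, 0 miRNAs were called in both comparisons as well. The Hv library that listed hvu-new48 was of run 1, in which no Lv library was sequenced.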

Other observations

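Outside the members, the predicted miRNAs with counts in Rc and none in stored seeds included hvu-new61, hvu-new8 and hvu-new65. The counts in Rc replicates 1 to 3 were 3, 6 and 7 for hvu-new61, 0, 4 and 5 for hvu-new8, and 2, 2 and 2 for hvu-new65. In all, 9 of the 81 predicted miRNAs had counts in Rc and none in stored seeds, 3 of them members, and not all of the others are named here.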
